A study of Mus musculus with 1024 samples.

Results

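Vcan, Hapln1, Nos1, Slc6a6, Ssu2, Nr4a2, Clstn1 and Net1 are 8 genes of the 24422 in the count table, chosen because a small set of endothelial wells from the mouse aorta shared them. The choice rested on co-detection in the endothelial wells, so that co-detection and the wells that carry it are given as a description with no test. Tests were run only over samples, between genotypes and between sort gates. Single aortic cells were sorted into 384-well plates and sequenced with Smart-seq2, which makes full-length cDNA from polyadenylated RNA and counts reads without molecular identifiers. All mice were 3 months old and carried the strain label Amotl2flow/flow / Cdh5-RREert /ROSA26-EYFP, wild type (WT) wells included, on a C57BL/6 background. In this model tamoxifen drives Cre under the Cdh5 promoter, which deletes Amotl2 and switches on EYFP in endothelial cells (ECs) of the KO mice. Whether the WT mice received tamoxifen is not given in the sources used here. Amotl2 encodes a junctional scaffold protein. The labels give 2 sorts per genotype, called preparations here, and do not tell the mice apart. The preparation was therefore the replicate (n = 2 per genotype), and p-values measure only the spread between preparations.

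Wells were labelled Endothelial (Cd31+Cd45- gate, 896 wells) or DoubleNegative (Cd31-Cd45- gate, 128 wells). Of these, 676 Endothelial and 108 DoubleNegative wells had at least 20000 counts on genes and 500 genes, and the results below refer to them. The Endothelial wells comprised 235 of WT preparation 1, 50 of WT preparation 2, 302 of KO preparation 1 and 89 of KO preparation 2, with median depths between 58190 counts in KO preparation 2 and 252839 counts in KO preparation 1. Preparation 1 used a plate for each genotype, which means that an effect of the plate cannot be told apart from one of genotype in it, whereas preparation 2 put both genotypes on the same plate. Amotl2 had a count in 163 of 285 WT (57.2%) and 162 of 391 KO (41.4%) Endothelial wells, and EYFP in 6 WT (2.11%) and 307 KO wells (78.5%). Counts per gene do not resolve the deleted exon.

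Vcan encodes versican, a large chondroitin sulphate proteoglycan of the extracellular matrix, and Hapln1 encodes the link protein that locks such proteoglycans onto hyaluronan. In the artery wall versican is best known as a product of smooth muscle cells, and both proteins are familiar from the matrix of developing heart valves and of cartilage. Nos1 is the neuronal type of nitric oxide synthase, whose product activates soluble guanylate cyclase. Slc6a6 is the plasma membrane taurine transporter, Nr4a2 is an orphan nuclear receptor that is induced as an immediate early gene, Clstn1 is a calsyntenin that links cargo vesicles to kinesin, and Net1 is a guanine nucleotide exchange factor for small GTPases.

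Vcan and Hapln1 are neighbours in the genome. On GRCm38, Hapln1 (ENSMUSG00000021613) lies on the forward strand at chr13:89539796-89611652 and Vcan (ENSMUSG00000021614) on the reverse strand at chr13:89655312-89742509, so that their 3′ ends face each other across 43.7 kb. Net1 is on the same chromosome but far away, at chr13:3882018-3918220. No gene that overlaps a member in the annotation was in the count table. The other members lie on chromosomes 5 (Nos1), 6 (Slc6a6 and Ssu2), 2 (Nr4a2) and 4 (Clstn1). Because the linked genes were counted in the same rare wells, the 250 bases before the RefSeq start of each are shown, read 5′ to 3′ in the direction of transcription from the GRCm38.p6 promoter table, with the letters GGGCGG (the core of an Sp1-type GC box), or CCGCCC where they stand on the opposite strand, in capitals. Vcan is taken from chr13:89742513-89742762 (reverse strand, 62.4% GC) and Hapln1 from chr13:89540386-89540635 (forward strand, 54.4% GC).
Vcan: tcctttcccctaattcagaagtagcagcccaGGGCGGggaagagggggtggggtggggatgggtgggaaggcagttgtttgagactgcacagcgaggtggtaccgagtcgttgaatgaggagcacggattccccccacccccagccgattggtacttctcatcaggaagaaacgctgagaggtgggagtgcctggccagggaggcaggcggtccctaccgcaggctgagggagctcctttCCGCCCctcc
Hapln1: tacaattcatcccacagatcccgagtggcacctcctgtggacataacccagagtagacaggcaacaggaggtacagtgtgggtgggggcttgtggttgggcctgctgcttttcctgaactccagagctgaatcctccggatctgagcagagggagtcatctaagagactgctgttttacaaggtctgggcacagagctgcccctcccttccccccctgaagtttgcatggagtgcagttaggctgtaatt
The Vcan window held these letters at 2 places and the Hapln1 window at none, and 32.7% of all 32851 promoters of the same length held them on either strand. Promoters of 7 of the 8 members were in the table, Slc6a6 being the exception. AAAGGTCA, the letters bound by Nr4a receptors, stood in none of the members' windows and in 1.34% of all promoters. TATAAA stood only in that of Nr4a2 among the members, and in 12.4% of all promoters. A match, or its absence, in these windows is a description of letters only.

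Vcan and Hapln1 had a count together in 16 of the 676 Endothelial wells (2.37%, exact binomial 95% interval 1.36 to 3.82%, which like every interval here covers counting error only). Hapln1 had a count in these 16 wells and in no other Endothelial well, so every Endothelial well with Hapln1 also had Vcan. Vcan had a count in 33 wells, of which the 16 are 48.5%. The double-positive wells had a median of 120011 counts (22033 to 753055) and 4060 genes, and the other 660 Endothelial wells a median of 159813 counts and 3798 genes. The lowest count in these wells was 5 for Hapln1 and 1 for Vcan. After each well was thinned to 20000 counts, 14 wells still held both genes.

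**Figure D1:**
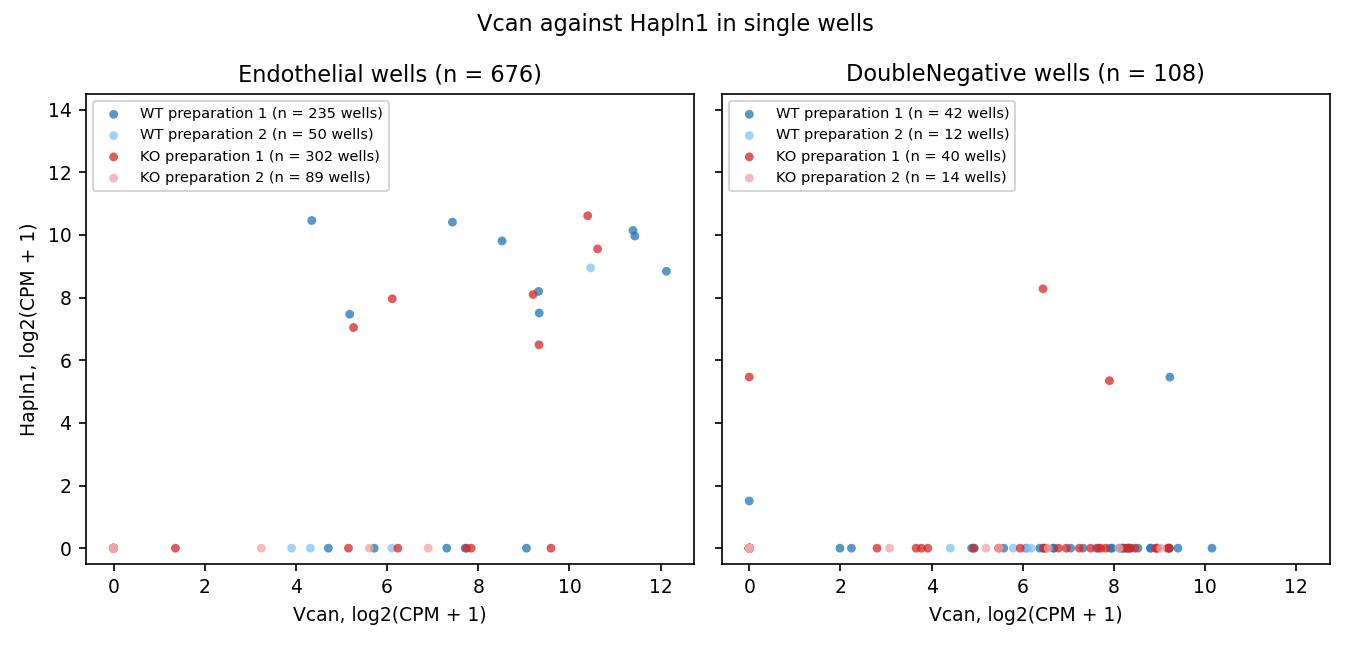
Vcan against Hapln1 in each well, both as log2(CPM + 1), for the 676 Endothelial wells (left) and 108 DoubleNegative wells (right), coloured by genotype and preparation. All 16 Endothelial wells with Hapln1 lie above 0 on the Vcan axis too, while most DoubleNegative wells with Vcan lie at 0 on the Hapln1 axis.

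The 16 wells came from 3 of the 4 samples. WT preparation 1 held 9 of 235 (3.83%, interval 1.77 to 7.15%), WT preparation 2 held 1 of 50 (2.0%, 0.0506 to 10.6%) and KO preparation 1 held 6 of 302 (1.99%, 0.733 to 4.27%). KO preparation 2 held 0 of 89, which allows a share of up to 3.37% taken as 3 wells of 89, and 4.06% by the exact interval. The mean share was 2.91% ± 1.29 in WT and 0.993% ± 1.40 in KO (SD, n = 2), a difference of KO minus WT of -1.92 percentage points. The exact two-sided permutation test over the 4 samples gave p = 0.333, the smallest p that 2 against 2 allows, so this design could not reach 0.05. The intervals of the 4 samples overlap one another.

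On their plates the 9 wells of WT preparation 1 were spread over 7 rows and 8 columns, and the 6 wells of KO preparation 1 over 5 rows and 5 columns. Touching wells occurred 2 times, both on the WT preparation 1 plate, and the part of spill-over was not tested. In the first of these contacts, well F12 had 28356 counts with 1 count of Vcan and 5 of Hapln1, beside E11 with 43 and 105. In the other, K20 had 22033 counts with 61 of Vcan and 22 of Hapln1, beside J21 with 77379 counts, 50 of Vcan and 14 of Hapln1.

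The remaining 6 members accompanied the pair. Of the 16 wells, 13 had a count of all 8 members, 2 had 7 and 1 had 5, whereas the other Endothelial wells had a median of 2 members. None of those 660 wells had all 8, and 2 of them, both of WT preparation 1, had 7. These 2 wells (N04 and N18, 38069 and 33529 counts) held Vcan with 6 and 7 counts, Nos1 with 29 and 5 and Ssu2 with 38 and 22, but no Hapln1 and no Edil3. Of the 4 least often detected members (Vcan, Hapln1, Nos1 and Ssu2), 14 of the 16 wells had all and the other 2 had 3 and 2. Among the 660 other wells 610 had none of these 4, 48 had 1, none had 2 and 2 had 3, so that counts of these genes outside the double-positive wells were almost always of 1 gene alone.

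**Figure D2:**
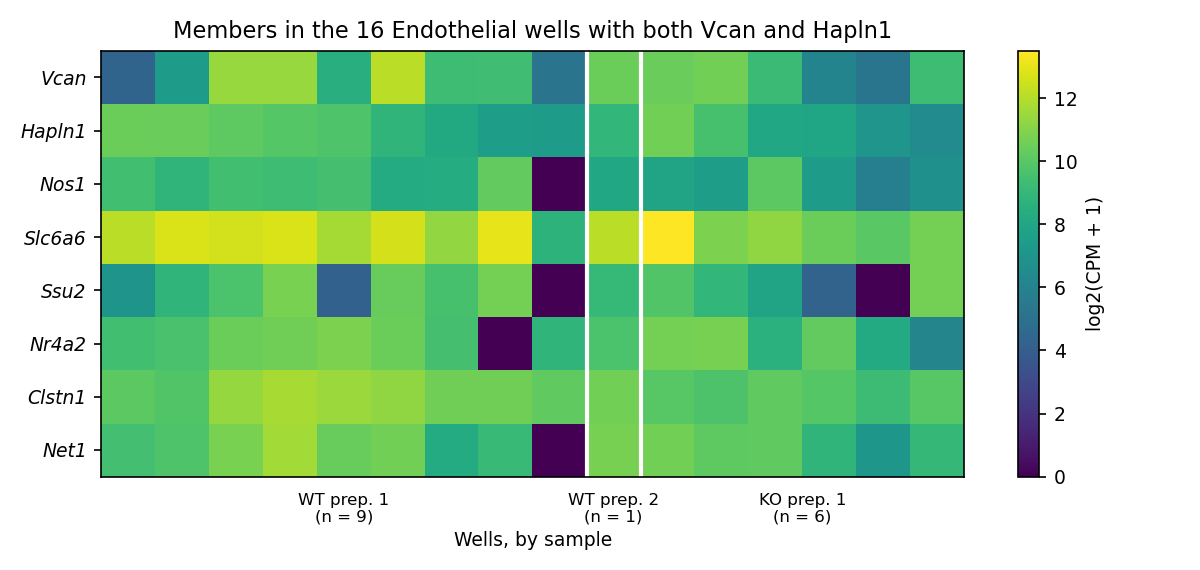
Level of each member, as log2(CPM + 1), in the 16 Endothelial wells with both Vcan and Hapln1, ordered by sample and within a sample by falling Hapln1. Of the 16 wells, 13 have a count of all 8 members, and the well at the right end of WT preparation 1 lacks Nos1, Ssu2 and Net1.

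For the matrix genes, Vcan ranged from 19.4 to 4477 CPM (counts scaled to the well's total on genes) in the 16 wells with a median of 642 CPM, and Hapln1 from 89.0 to 1564 CPM with a median of 475 CPM. These wells held 2.13% of all counts of the Endothelial wells but 82.4% of their Vcan counts and 100% of their Hapln1 counts. In the 17 Endothelial wells with Vcan and no Hapln1, the median was 68.0 CPM. The smooth muscle gene Acta2 had a count in 6 of those 17 wells and the fibroblast gene Dcn in 4. In the 16 double-positive wells they had one in 3 and 0, and in the 643 wells with neither Vcan nor Hapln1 in 211 and 148. The part of other cell types in the 17 wells was not tested. Within the 16 wells the levels of Vcan and Hapln1 were only loosely ordered together (Spearman correlation 0.23 across the 16 wells), with Vcan closer to Ssu2 (0.79) and Net1 (0.75) and Hapln1 to Slc6a6 (0.67) and Nr4a2 (0.67). These wells share libraries prepared on the same plates, and the values are given as a description.

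Nos1 had a count in 15 of the 16 wells with a median of 320 CPM (0 to 1228 CPM), against 14 of the 660 others. The 16 wells held 88.0% of the Nos1 counts of all Endothelial wells. Ssu2 had a count in 14 of 16 wells with a median of 506 CPM (0 to 1770 CPM), against 23 of 660, and the 16 wells held 76.7% of its counts. Wells with both Nos1 and Ssu2 also numbered 16, of which 14 were double-positive for Vcan and Hapln1, and all 16 had Vcan.

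Slc6a6 had a count in all 16 wells, with a lowest value of 423 CPM, a median of 3827 CPM and a highest of 11591 CPM. It had a count in 46 of the other 660 wells (6.97%), where the median over the wells with a count was 156 CPM. Its lowest double-positive well was thus above the middle of the other wells that had it. Nr4a2 had a count in 15 of 16 wells with a median of 811 CPM (0 to 1825 CPM), against 56 of 660. The 16 wells held 78.8% of the Slc6a6 counts and 82.6% of the Nr4a2 counts.

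Clstn1 and Net1 were of another kind, since most ECs had them. Clstn1 had a count in 16 of 16 and 585 of 660 wells, with a median of 1180 CPM (618 to 3359 CPM) against 126 CPM in the others. Net1 had a count in 15 of 16 and 397 of 660 wells, with a median of 1013 CPM (0 to 3177 CPM) against 17.7 CPM. The double-positive wells held 15.2% of the Clstn1 and 17.97% of the Net1 counts, and the wells differed from the others in the level of these members more than in their presence. By the difference in share of wells with a count after thinning, Slc6a6, Hapln1, Vcan and Nr4a2 ranked 1 to 4 among all genes, Nos1 6 and Ssu2 11, but Net1 51 and Clstn1 441. The members were chosen from these wells, so high ranks follow from the choice.

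**Figure D3:**
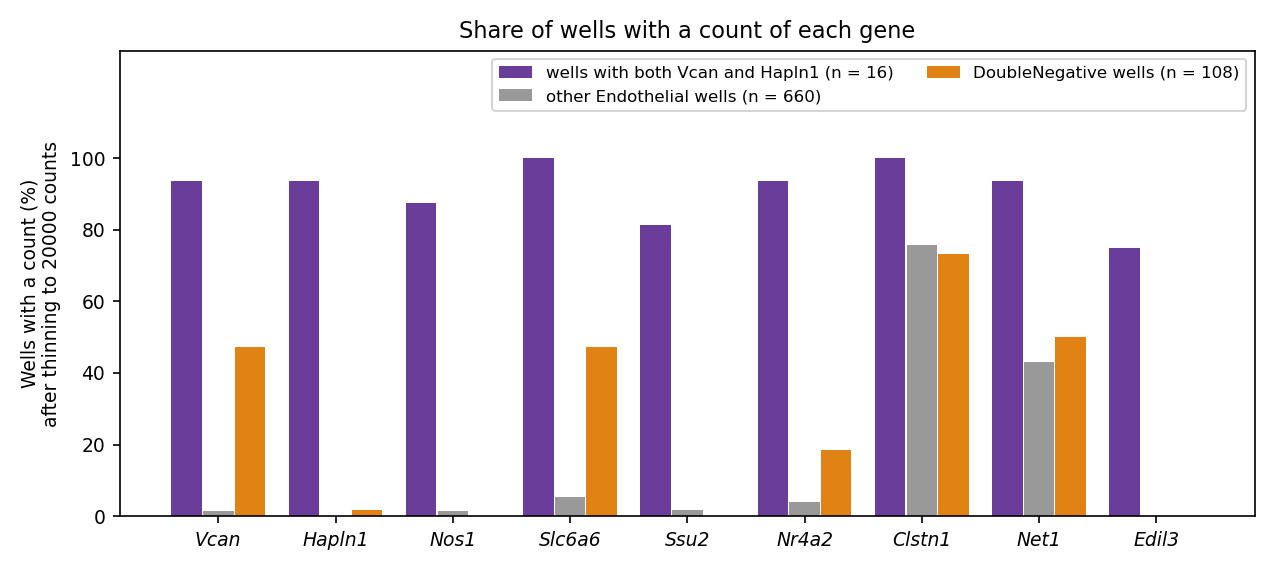
Share of wells (%) with a count of each member and of Edil3 after every well was thinned to 20000 counts, in the 16 Endothelial wells with both Vcan and Hapln1, the other 660 Endothelial wells and the 108 DoubleNegative wells. Vcan, Slc6a6 and Nr4a2 are shared with DoubleNegative wells, whereas Nos1, Ssu2 and Edil3 have no count there.

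The pattern was alike in the samples that had such wells. The summed double-positive wells of WT preparation 1, WT preparation 2 and KO preparation 1 gave 1016, 1412 and 499 CPM of Vcan and 1.93, 1.97 and 4.28 CPM in the other wells of the same samples. Slc6a6 gave 5107, 4396 and 2271 CPM against 23.7, 10.2 and 20.6 CPM. Nos1 gave 608, 271 and 266 CPM against 3.35, 0.0895 and 0.280 CPM. Both WT values were above the KO value for these 3 genes, for Hapln1 (1000, 493 and 288 CPM), Nr4a2 (963, 820 and 664 CPM), Clstn1 (1689, 1572 and 1009 CPM) and Net1 (1009, 1677 and 657 CPM), but not for Ssu2 (558, 524 and 736 CPM). The sums rest on 9, 1 and 6 wells and weight deep wells more. By the median over wells the values were close for Nr4a2 (802, 820 and 798 CPM), and for Vcan and Net1 between WT preparation 1 and KO preparation 1 (640 against 616 and 871 against 835 CPM). For Ssu2 both WT medians were above the KO one (750, 524 and 361 CPM). The same held for Hapln1 (895, 493 and 261 CPM) and Slc6a6 (6203, 4396 and 1728 CPM). It also held for Nos1 (635, 271 and 173 CPM) and Clstn1 (1518, 1572 and 1009 CPM). The order of the samples was not tested.

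Within 1 Mb of Vcan the annotation lists 16 genes, of which 4 were in the count table. Edil3, which encodes a secreted integrin-binding matrix protein and lies on the far side of Hapln1 at chr13:88821472-89323223, had a count in 14 of the 16 wells (median 107 CPM, 0 to 681 CPM). It had none in the other 660 Endothelial and none in the 108 DoubleNegative wells. Tmem167 and the DNA repair gene Xrcc4 on the other side of Vcan were less exclusive, with a count in 11 of 16 against 408 of 660 wells and in 9 of 16 against 172 of 660 wells. The genes lie in the order Edil3, Hapln1 and Vcan along the chromosome. Hapln1 and Vcan define the 16 wells, so only the share of Edil3 was free to vary.

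The 16 wells carried endothelial markers. Pecam1, Egfl7 and Esam had a count in all 16 wells, Tie1 and Vwf in 15, Cdh5 and Tek in 14 and Erg in 10, while Kdr had one in 3 and Emcn in 1 (57 and 209 of the other 660). The summed level of the 10 endothelial markers had a median of 9702 CPM (3754 to 16952 CPM), against 15485 CPM in the other Endothelial wells and 19.5 CPM in DoubleNegative wells. Of the 8 smooth muscle markers Des was at 0, and the sum ranged from 0 to 17633 CPM with a median of 98.1 CPM, against medians of 36.7 CPM in other Endothelial and 52251 CPM in DoubleNegative wells. Smtn had a count in 10 of 16 against 268 of 660 wells, and Tagln in 4 against 204. Myl9, Lmod1 and Cnn1 had one in 3, 2 and 1 of the 16 wells (78, 55 and 28 of the other 660). Acta2 and Myh11 each had a count in 3 of the 16 wells, against 217 and 33 of the other 660. The 3 wells were I09 of KO preparation 1 and E11 and F12 of WT preparation 1, with 282, 48 and 304 counts of Acta2. I09 and F12 were also the wells without Cdh5. Among the 456 Endothelial wells without Acta2, a setting added after the data were seen, 13 had both genes.

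The fibroblast markers Dcn, Lum, Pdgfra and Dpt were at 0 in all 16 wells, and the 8 fibroblast markers summed to a median of 9.73 CPM (0 to 918 CPM) against 70.6 CPM in the other Endothelial and 3437 CPM in DoubleNegative wells. Serpinf1 had a count in 7 of the 16 wells, Col1a2 in 2, and Col1a1 and Col3a1 in 1 each (223, 179, 22 and 155 of the other 660). Prox1, Lyve1, Pdpn, Mmrn1 and Ccl21a, 5 of 6 lymphatic markers, were at 0. The sixth, Flt4, was detected more often in these wells, with a count in 13 of 16 against 288 of 660 and medians of 29.8 against 0 CPM. Of the endocardial markers Npr3, Gata4, Tbx20 and Wnt9b were at 0, while Nfatc1, a transcription factor of valve endothelium, had a count in 11 of 16 wells against 300 of 660, and Hand2 in 1 against 1. The cartilage genes Sox9, Col2a1, Col9a1 and Matn1 were at 0, while Acan, which encodes the hyaluronan-binding proteoglycan aggrecan, had a count in 2 of 16 wells against 2 of 660 (at most 213 CPM) and Comp in 1 against 15. The pericyte genes Rgs5, Kcnj8 and Abcc9 were at 0 in the 16 wells, while Pdgfrb and Cspg4 each had a count in 4 and Notch3 in 3 (270, 18 and 10 of the other 660), with a list sum of up to 1563 CPM in 5 wells. At 0 in the 16 wells were also the cell cycle genes Mki67, Top2a, Ccnb1 and Cdk1. A neural or glial marker had a count in 2 of the 16 and 406 of the other 660 wells. Of 7 immune markers 6 were at 0, and the summed level reached at most 114 CPM. The other one, Cd68, had a count in 2 of 16 wells against 9 of 660, where it reached at most 91.4 CPM. The 13 wells without Acta2 all had Pecam1 and Cdh5 and no count of Myh11, whereas the 3 with Acta2 also had Myh11 beside Pecam1. At least 1 smooth muscle marker had a count in 10 of the 16 wells, so such counts were not confined to these 3. The wells are given no narrower name here.

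Other genes were found in the same wells. The 10 non-members with the widest difference in share of wells with a count, after thinning, were Laptm5, Gucy1a3, Fabp4, Nebl, Alpl, Tppp3, S100a4, Ptchd1, Edil3 and Dusp26. Laptm5, which encodes a lysosomal membrane protein known from blood cells, had a count in 16 of 16 wells and 14 of the other 660, and in no DoubleNegative well, while the pan-leukocyte gene Ptprc was at 0 in the 16. Alpl, the tissue-nonspecific alkaline phosphatase, had a count in 13 of 16 and 9 of 660 wells, and Dusp26, a dual-specificity phosphatase, in 12 and 5. Fabp4, a fatty acid binding protein, had a median of 561 CPM and a count in 15 of 16 wells, but also in 83 of 660 and in 54 of 108 DoubleNegative wells. These genes were selected by their difference between the very wells described, and no test was made.

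**Figure D4:**
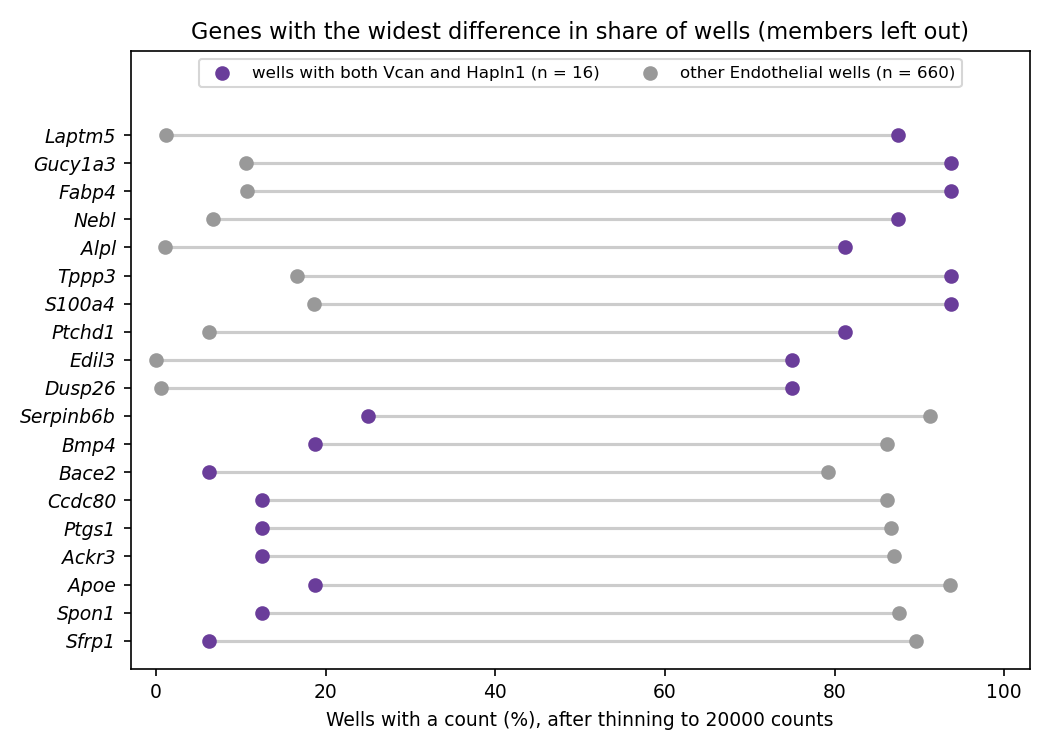
Share of wells (%) with a count after thinning to 20000 counts, in the 16 Endothelial wells with both Vcan and Hapln1 (purple) and the other 660 (grey), for non-member genes among the 10 with the widest difference in each direction (10 more often and 9 less often detected in the 16 wells). Laptm5 goes from 1.21 to 87.5% of wells and Sfrp1 from 89.5 to 6.25%.

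Some genes with a count in most ECs had one in few of the same wells. After thinning, Sfrp1, a secreted Wnt antagonist, had a count in 1 of 16 wells against 591 of 660, Spon1 in 2 against 578, and Apoe, the main apolipoprotein of remnant particles, in 3 against 618. The growth factor gene Bmp4 had one in 3 against 569, and the atypical chemokine receptor gene Ackr3 in 2 against 574. Ptgs1, Ccdc80, Bace2 and Serpinb6b were also among the 10 with the widest difference in this direction. The medians of these 9 genes over the other ECs ranged from 298 CPM for Bace2 to 2165 CPM for Apoe, and were 0 CPM over the 16 wells for each. Before thinning these 9 genes had a count in 2 (Sfrp1) to 7 (Serpinb6b) of the 16 wells.

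The likeness of the wells over genes other than the members is given as a description and is no independent support, since the set was chosen from these wells. When the 5 nearest wells of the same sample were found from 2000 variable genes and 30 principal components, with the members and their chromosomal neighbours left out, the double-positive wells of WT preparation 1 had on average 2.89 double-positive wells among the 5 (1 to 5) and those of KO preparation 1 had 1.83 (1 to 2). The other wells had 0.0442 and 0.0236. Each of the 15 wells had at least 1.

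Amotl2 itself was scarce in them. A count of Amotl2 was seen in 1 of the 10 WT double-positive wells against 162 of the other 275 WT wells (58.9%), and in 0 of 6 KO wells against 162 of 385 (42.1%). After thinning the WT values were 1 of 10 and 111 of 275. EYFP had a count in 5 of the 6 KO wells and 302 of the other 385 KO wells (78.4%), and in none of the 10 WT wells. The reporter was thus present in 83.3% of the 6 KO wells, in 3 of them after thinning.

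Around Nos1, the soluble guanylate cyclase subunits were present. Gucy1a3 had a count in 15 of 16 wells against 88 of 660, and Gucy1b3 in 10 against 33. Nos3, the endothelial nitric oxide synthase, had a count in 13 of 16 against 601 of 660 wells, with medians of 145 and 165 CPM, so Nos1 came beside Nos3 and not in place of it. Ddah1, which breaks down inhibitors of nitric oxide synthase, had none in 16 wells against 232 of 660. Of the other Nr4a receptors, Nr4a1 had a count in 13 of 16 against 328 of 660 wells, and Nr4a3 in 3 against 13. The 10 genes raised by tissue dissociation, which include Nr4a1 and Nr4a3, summed to a median of 4193 CPM in the 16 wells (504 to 23494 CPM), 2098 CPM in the other Endothelial and 6158 CPM in the DoubleNegative wells, and their part in the Nr4a2 level was not tested.

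Of the genes that make or bind hyaluronan, the synthases Has1, Has2 and Has3 and the other link protein genes Hapln2, Hapln3 and Hapln4 had no count in the 16 wells and few elsewhere (6, 0, 21, 0, 12 and 3 of the other 660 wells). Hyal2 and Tmem2, which degrade hyaluronan, had a count in 13 and 15 of 16 wells and in 580 and 585 of 660. Fbln2, a versican-binding fibulin, and Fn1 had one in all 16 wells and in 647 and 603 of 660. The hyaluronan scavenger receptor Stab1 had a count in 14 of 16 against 642 of 660 wells, with a median of 52.6 against 455 CPM, and the hyaluronan receptor Cd44 in 3 against 124.

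In the DoubleNegative wells the members were combined differently. Vcan had a count in 66 of 108 wells (61.1%), against 4.88% of Endothelial wells, and Hapln1 in 5 (4.63%), of which 3 also had Vcan. Both genes together were thus found in 2.78% of DoubleNegative wells (exact interval 0.577 to 7.90%) and 2.37% of Endothelial wells, but they made up 3 of 66 wells with Vcan in the former and 16 of 33 in the latter. Those 5 wells (1 to 72 counts of Hapln1) each had Acta2 and Myh11, and in the 3 with both genes Hapln1 had 6, 72 and 9 counts. Nos1, Ssu2 and Edil3 had no count in any of the 108 wells, which allows a share of wells with a count of up to 2.78% taken as 3 wells of 108, and 3.36% by the exact interval. Nos1 had a count in 4.29% of Endothelial wells and Ssu2 in 5.47%. No DoubleNegative well had more than 5 of the 8 members. Slc6a6 had a count in 71 wells, Nr4a2 in 32, Clstn1 in 95 and Net1 in 64.

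To compare the gates, wells were summed per genotype, preparation and gate and the 8 sums tested with edgeR's quasi-likelihood test. The Endothelial and DoubleNegative sums of the same sort were fitted as independent samples, and their pairing was not modelled. Fewer cells of a type and less RNA per cell cannot be told apart in such sums. Over 12137 genes 18.9% were called at a Benjamini-Hochberg adjusted p under 0.05, 9.71% higher in Endothelial and 9.18% higher in DoubleNegative wells, and 3 of the 8 members were called, Vcan, Nos1 and Ssu2. The levels in the Endothelial sums had a part in choosing the genes, so nothing is read from this count. Vcan had 31.5, 22.1, 14.6 and 1.77 CPM in the Endothelial sums of WT preparations 1 and 2 and KO preparations 1 and 2, and 210, 26.3, 169 and 68.0 CPM in the DoubleNegative sums, which was higher in each of the 4 pairs. Its log2 fold change of Endothelial over DoubleNegative was -3.13 (SE 0.81, edgeR adjusted p = 0.0235). Without the 16 double-positive wells, a setting added after the data were seen, it was -5.72. Those wells are all Endothelial and held 82.4% of the Vcan counts of that gate, so nothing is read from this change. Without WT preparation 1, KO preparation 1 or KO preparation 2, and without wells with Acta2, the call was lost (edgeR adjusted p = 0.122, 0.0725, 0.0646 and 0.117), with log2 fold changes of -2.97, -3.16, -2.72 and -2.55.

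Nos1 and Ssu2 passed the filter on low counts only through the Endothelial sums, where they had been chosen, so their call follows from the choice and their values are a description. Nos1 had 20.98, 3.97, 5.80 and 2.01 CPM in the 4 Endothelial sums and 0 in the 4 DoubleNegative sums. Relative to a floor of 3 counts over all DoubleNegative wells, the 9.38 CPM over all Endothelial wells was 56.2-fold higher. The 1.15 CPM over the wells without the 16 was 6.89-fold higher than this floor. Ssu2 had 28.8, 10.3, 16.3 and 3.54 CPM against 0 in each, 110-fold above the same floor over all wells and 26.2-fold without the 16. These folds are no lower bounds, because counts of both genes sat in few wells and such wells could be missed among the DoubleNegative wells. Without the 16 wells, or with wells thinned to 20000 counts, Nos1 was too low to be tested.

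The other 5 members were not called between gates. Hapln1 had 29.1, 7.06, 5.98 and 0 CPM in the Endothelial sums and 1.51, 0, 9.86 and 0 CPM in the DoubleNegative sums, and the groups overlap (log2 fold change 1.35, SE 2.0, edgeR adjusted p = 0.722). Slc6a6 had 172, 73.0, 67.3 and 6.26 CPM against 139, 70.8, 169 and 125 CPM (log2 fold change -1.04, SE 0.74, edgeR adjusted p = 0.416). Without the 16 wells, a setting added after the data were seen, its log2 fold change was -3.17. Those wells held 78.8% of the Slc6a6 counts of the Endothelial wells, so nothing is read from this change either. For Nr4a2, Clstn1 and Net1 the log2 fold changes were -0.48 (SE 0.75), 0.43 (SE 0.23) and -0.88 (SE 0.40), with edgeR adjusted p = 0.737, 0.251 and 0.173. Net1 was called higher in DoubleNegative wells when WT preparation 1 was left out (log2 fold change -1.25, edgeR adjusted p = 0.0378).

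**Figure D5:**
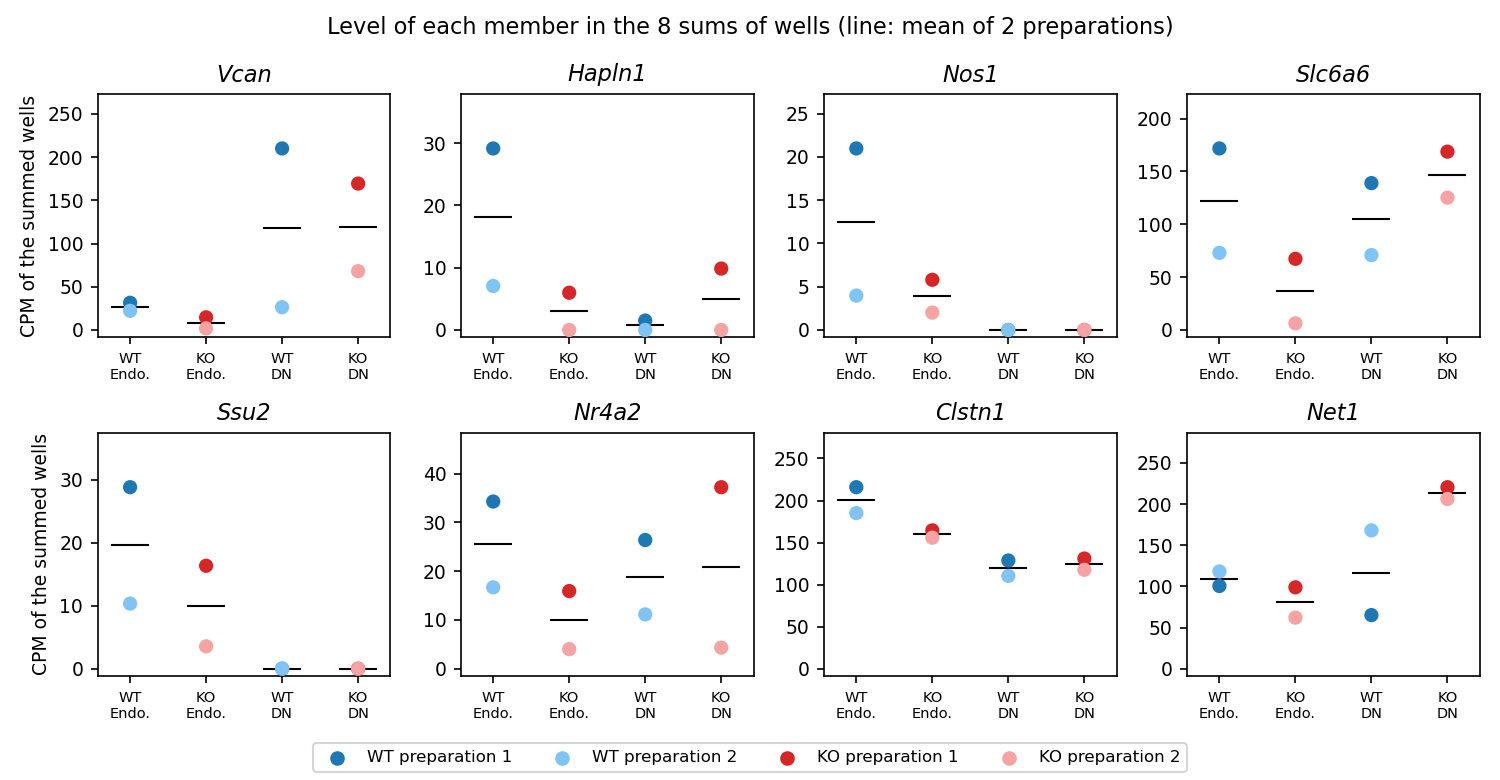
CPM of each member in the sums of Endothelial (Endo.) and DoubleNegative (DN) wells of each genotype and preparation, 1 point per sum, with a line at the mean of the 2 preparations and a linear axis from 0 in each panel. In the Endothelial sums every member is lower in KO than in WT within each preparation, and Nos1 and Ssu2 are at 0 in all 4 DoubleNegative sums.

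In the list of genes around hyaluronan and versican, 27 of 38 were tested between gates, with 5 called higher in Endothelial and 11 higher in DoubleNegative wells and a median log2 fold change of -1.05 against 0.12 over all genes tested. The 5 with the smallest p were Hyal2, higher in Endothelial wells by 3.63 (SE 0.40) on the log2 scale, and the chondroitin polymerizing factor Chpf (-6.52, SE 0.62), the matrix glycoprotein tenascin C, Tnc (-6.86, SE 0.91), the hyaluronan synthase Has1 (-8.12, SE 1.19) and the fibulin Fbln1 (-6.26, SE 0.99), all higher in DoubleNegative wells. Of 13 nitric oxide genes tested 4 were higher in Endothelial and 5 in DoubleNegative wells, among the latter Gucy1a3 (-4.42, SE 0.48) and Gucy1b3 (-4.56, SE 0.61), the subunits that accompanied Nos1 in the 16 wells. Nr4a1 (-2.81, SE 0.58) and Nr4a3 (-3.72, SE 1.12), both of the tested Nr4a genes, were higher in DoubleNegative wells. The taurine list also holds other Slc6 transporters, and of its 5 tested genes Cdo1 and Slc6a9 were higher in DoubleNegative wells. Of 4 calsyntenin genes none was called. Markers behaved as labelled, with 9 of 10 endothelial genes higher in Endothelial wells and 8 of 8 smooth muscle and 8 of 8 fibroblast genes higher in DoubleNegative wells.

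Between genotypes, the summed Endothelial wells were lower in KO for all 8 members within both preparations, as they were for 23.4% of the 12702 genes tested, and for none of the 8 did the difference pass the test. The members share the same few wells, so they are not 8 separate observations, and Net1 in preparation 1 differed by only 98.8 against 100.5 CPM. Of these genes, 0% were called by edgeR's quasi-likelihood test (468 had an unadjusted p under 0.05, and DESeq2 called 37 genes, none of them a member). Both KO sums were below both WT sums for 6 members, all but Nos1 and Ssu2, against 14.6% of the genes tested. The log2 fold change of KO over WT was -1.73 (SE 0.76) for Vcan, -2.58 (SE 1.28) for Hapln1, -1.68 (SE 0.89) for Nos1, -1.77 (SE 0.78) for Slc6a6, -0.9995 (SE 0.73) for Ssu2 and -1.37 (SE 0.64) for Nr4a2. Clstn1 and Net1 differed less, by -0.32 (SE 0.25) and -0.45 (SE 0.29) on the log2 scale. The edgeR adjusted p was 0.9995 for each of the 8.

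The same test was run without the double-positive wells, a setting added after the data were seen. Those wells had a part in choosing the genes and held 82.4% of the Vcan and 100% of the Hapln1 counts. Nothing is therefore read from the changes. With the 16 wells left out, Vcan went to 0.61 (SE 1.10), Slc6a6 to -0.36 (SE 0.64) and Nos1 to -0.58 (SE 1.72) on the log2 scale, and Hapln1 had no counts left. Nr4a2 (-0.87, SE 0.89), Clstn1 (-0.14, SE 0.25) and Net1 (-0.19, SE 0.29) also came closer to 0, whereas Ssu2 went to -1.76 (SE 1.05). With WT preparation 2 left out, which leaves 1 WT sum assumed to vary like the KO sums, 5 members passed the edgeR test, where 221 of 13859 genes were called and 1.15% were called lower in KO. Their edgeR adjusted p was 3.11e-10 for Slc6a6, 1.39e-04 for Hapln1, 0.0320 for Vcan, 0.0434 for Nr4a2 and 0.0490 for Nos1. Without KO preparation 1 Slc6a6 passed with a log2 fold change of -4.18 (edgeR adjusted p = 0.0258), and with no filter on low counts it passed at -1.77 (edgeR adjusted p = 1.43e-05).

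Among the genes of the lists, none was called between genotypes. Those tested were 26 hyaluronan and versican genes, 14 nitric oxide genes, 5 genes of the taurine list, 2 Nr4a genes and 6 calsyntenin genes. Medians on the log2 scale lay between -0.90 for the Nr4a genes and 0.25 for the hyaluronan and versican genes. Over all genes tested the median was 0.00.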

How the data were processed

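STAR 2.7.7a, Picard 2.22.0 and HTSeq 0.9.1 are named in the submitters' processing notes. Per the study's methods the authors mapped reads to GRCm38 plus spike-in and EYFP sequence, discarded duplicates and tallied reads on genes. The deposited values are whole-number counts per gene and well with no normalization. The annotation release is not given in the sources used here, and coordinates come from GENCODE M21, which held 95.7% of the symbols. Of the counts 51.9% were on genes, 1.25% on 92 spike-in lines and 46.9% on 5 summary lines, and the last 2 kinds entered neither depths nor tests.

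The 8 members, the gene lists and the tests were chosen with earlier results of these data known. A gene was detected in a well at 1 count, and CPM uses a well's counts on genes as the total. Shares given as after thinning are from wells thinned to 20000 counts with a fixed seed. All other shares are from the counts as deposited, at unequal depth of wells. Intervals are exact Clopper-Pearson intervals. Sums of wells were fitted in edgeR 4.0.16 with TMM factors and filterByExpr, by glmQLFit and glmQLFTest, calling a gene at a Benjamini-Hochberg adjusted p under 0.05, and the gate fit had genotype as covariate. DESeq2 1.42.0 served as a second test, in R 4.3.3. Other values came from Python 3.11.15 with scipy 1.17.1, numpy 2.4.6 and pandas 2.3.3. The tests were checked on simulated counts. The labels give a sort number for each genotype and do not say whether equal numbers were sorted together. Sums with the same number correlated by 0.142 after removal of group means. Named genes are the members, genes within 1 Mb of Vcan, up to 5 called genes per list by smallest p, the 10 non-members with the widest difference in share of wells in each direction, and the markers. Doublets were not called, and whether a well held RNA of more than 1 cell was not tested. A gene among the 10 less often detected and a gene list are not reported here.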

Additional observations from a re-analysis of the deposited data

Results flagged for a closer look

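The taurine transporter Slc6a6 was higher in Endothelial than in DoubleNegative sums in both WT preparations and lower in both KO preparations. The difference of the gate effect, KO minus WT, was -2.28 (SE 1.26) on the log2 scale and did not pass the edgeR interaction test (adjusted p = 0.988). Nr4a2 had the same pattern, with a difference of -1.56 (SE 1.44) and an adjusted p that rounds to 1.00 in the same edgeR test. That test called 0 of 12729 genes, with 657 at an unadjusted p under 0.05. In WT preparation 2 the margin of Slc6a6 was 73.0 against 70.8 CPM, and in KO preparation 2 that of Nr4a2 was 4.01 against 4.32 CPM.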

How the results depend on the processing

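Between genotypes, edgeR called 0 genes in the reported test, 1 with RLE factors, 104 with no filter on low counts, 1 with the replicate block, 1 in wells with Cdh5 and Pecam1, 4 in wells thinned to 20000 counts and 1 in wells without Acta2 (added after seeing the data), DESeq2 called 37, and leaving out each sample gave 5 to 311. Members called were 0 in the reported test, 1 with no filter and 0 to 5 with a sample left out. With the replicate block Slc6a6 fell by 2.36 on the log2 scale (edgeR adjusted p = 0.197), and no call of a member changed in either comparison. Vcan went to 0.61 without the double-positive wells (added after seeing the data), a change from which nothing is read. Between gates, 2292 genes became 1250 to 1841 with a sample left out, and 3 called members became 1 to 3. Nr4a2 went from -0.75 to 0.15 with a sample left out, the latter without KO preparation 1. Wells with both Vcan and Hapln1 numbered 7 of 441 without WT preparation 1, 10 of 374 without KO preparation 1 and 16 of 587 without KO preparation 2, so a sample left out gave 7 to 16, and they numbered 14 of 676 at a minimum of 5 counts of each gene and 21 of 896 over all wells labelled Endothelial. The share was lower in KO under each of 6 alternatives, by 1.49 to 2.66 percentage points (exact permutation p = 0.333 or 0.667).

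With 2 preparations per genotype there is no permutation p under 0.333, and intervals of shares resting on 16 wells are wide. A well with 20000 counts misses genes of low level, so a count of 0 is no proof of absence.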
